A study of Mus musculus with 9 samples.

Results

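The enzymes described here are the hydroxylases and lysyl oxidases that modify collagen, and they comprise 9 of the 54532 genes counted in the retina. They were chosen by name: the prolyl 4-hydroxylase α subunits P4ha1 and P4ha2, the lysyl hydroxylases Plod1, Plod2, and Plod3, and the lysyl oxidases Lox, Loxl1, Loxl2, and Loxl3. All 9 had enough counts to be tested, as did 17540 genes in all. Bulk RNA-Seq was performed on the retina of 9 wild-type C57BL/6 mice at P17, with 3 mice per group. Control mice were raised in room air (non-OIR), and their labels also give DMSO. In the oxygen-induced retinopathy model, pups breathe high oxygen until P12 and room air from then on, and OIR mice had undergone this and received DMSO vehicle by intraocular injection at P12. Treated OIR mice underwent the same exposure and received a single intraocular injection of the study's small molecule, which inhibits hypoxia-inducible factors (HIFs), at P12; the labels give its amount as 70 ng in one field and as 70 ng per μL in another. Mice are named here by the numbers of their labels, which do not pair mice across groups. Control mice have the numbers 1, 6, and 7, OIR mice 3, 5, and 6, and treated OIR mice 2, 5, and 10, and where 3 values of a group follow each other they are in this order.

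Collagen chains are hydroxylated in the endoplasmic reticulum before they leave the cell. Prolyl 4-hydroxylases stabilize the triple helix, and lysyl hydroxylases prepare lysines for sugar attachment and for cross-links. Once collagen and elastin have been secreted, copper-dependent lysyl oxidases start the cross-linking of the fibers. The hydroxylases need oxygen, iron, and 2-oxoglutarate, and P4ha1, P4ha2, Plod2, Lox, and Loxl2 are known from hypoxic cells as genes that HIFs can induce. In the retina, collagen lies chiefly in the basement membranes of vessels and of the inner limiting membrane, and the lens capsule and the connective tissue around the eye are other places in the eye where these enzymes work.

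The promoters are shown because the injected compound is directed at the HIFs, which bind DNA at a short core, ACGTG or GCGTG. RefSeq promoters were found for 4 of the 9 enzymes, and the 250 bases before each start are given 5′ to 3′ in the direction of the gene (GRCm38.p6). Capitals mark each core, searched on both strands, so that a core on the other strand reads CACGT or CACGC. P4ha1 (chr10:59323046-59323295, + strand), P4ha2 (chr11:54100674-54100923, + strand), Plod1 (chr4:147936777-147937026, − strand), and Plod3 (chr5:136986769-136987018, + strand) read as follows.
P4ha1: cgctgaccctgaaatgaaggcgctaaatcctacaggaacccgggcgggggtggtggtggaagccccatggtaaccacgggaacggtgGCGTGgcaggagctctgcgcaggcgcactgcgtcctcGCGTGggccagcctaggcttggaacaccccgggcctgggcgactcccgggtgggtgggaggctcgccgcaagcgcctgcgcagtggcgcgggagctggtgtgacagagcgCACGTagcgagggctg
P4ha2: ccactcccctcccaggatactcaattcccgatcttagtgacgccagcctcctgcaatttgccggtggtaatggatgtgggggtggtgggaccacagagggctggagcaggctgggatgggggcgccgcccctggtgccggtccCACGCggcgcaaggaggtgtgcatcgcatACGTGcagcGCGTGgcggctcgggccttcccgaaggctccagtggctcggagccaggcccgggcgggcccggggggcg
Plod1: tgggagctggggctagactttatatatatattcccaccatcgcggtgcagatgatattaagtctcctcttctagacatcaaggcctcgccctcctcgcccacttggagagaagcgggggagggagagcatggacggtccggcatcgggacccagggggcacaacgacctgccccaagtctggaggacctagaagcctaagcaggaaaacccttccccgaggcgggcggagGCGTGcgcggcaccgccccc
Plod3: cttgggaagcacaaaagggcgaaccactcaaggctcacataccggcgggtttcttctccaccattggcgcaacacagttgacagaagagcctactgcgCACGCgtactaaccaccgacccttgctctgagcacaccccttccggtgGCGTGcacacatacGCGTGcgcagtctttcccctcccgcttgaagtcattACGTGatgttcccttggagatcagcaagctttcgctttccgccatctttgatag

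The P4ha1 and P4ha2 windows each held 3 cores, the Plod1 window 1, and the Plod3 window 4. Of 32851 promoter windows of this length, 38.6% held at least 1 core, 16.7% at least 2, 6.6% at least 3, and 2.6% at least 4. In P4ha1 the core nearest the start lay at bases -16 to -12, on the other strand, and in Plod1 the single core lay at -20 to -16. The nearest core was at -69 to -65 in P4ha2 and at -54 to -50 in Plod3. The P4ha2 window lies within the span of the gene as counted, which starts at 54100095. The windows of P4ha1, Plod1, and Plod3 lie before theirs. A core in these letters is a description of the sequence and not a measured HIF binding site.

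Control libraries held 16864135 to 27213184 counts, OIR libraries 18556723 to 21071371, and treated OIR libraries 16028731 to 18560178. The rod photoreceptor markers Pde6b, Gnat1, Nrl, and Sag were detected in every mouse, with Gnat1, the rod transducin α subunit, at 7877 to 15240 CPM (counts scaled to library size). From these, 2 libraries stood apart. Treated OIR mouse 2 had 15.8% of its counts in crystallin genes of the lens, against at most 0.186% in any other mouse, and control mouse 1 had a summed level of 6 fibroblast markers of 1016 CPM, against 38.88 to 238.1 CPM in the other 8 mice. By Xist and Y-chromosome counts, 1 control, 1 OIR, and 2 treated OIR mice were female, and control mouse 1 and treated OIR mouse 2 were among them. Beside many of the results, values without these mice are also given.

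Levels of different genes were compared as CPM divided by gene length in kilobases (RPKM). In control retina P4ha1 had the highest level, at 18.2 ± 1.33 RPKM (SD, n = 3), followed by Loxl1 at 13.3 ± 9.19, Plod3 at 7.06 ± 2.64, and Plod1 at 6.30 ± 1.82 (SD, n = 3 each). The other 5 enzymes lay between 1.81 and 2.86 RPKM on average, and their mice overlapped, as did the neighbors among the first 4. The gap between Plod1 and Loxl2, the next in order at 2.86 ± 0.848 RPKM (SD, n = 3), was the only one without overlap in control mice. In OIR mice P4ha1 again led, at 20.1 ± 1.95 RPKM (SD, n = 3), apart from Loxl1 at 12.1 ± 5.58 (SD, n = 3). Lox was the last in order there, at 1.65 ± 1.38 RPKM (SD, n = 3). In treated OIR mice Loxl2 stood second, at 11.3 ± 8.80 RPKM (SD, n = 3), a mean carried by mouse 2 at 21.4 RPKM beside 6.33 and 6.04 RPKM in mice 5 and 10.

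**Figure D1:**
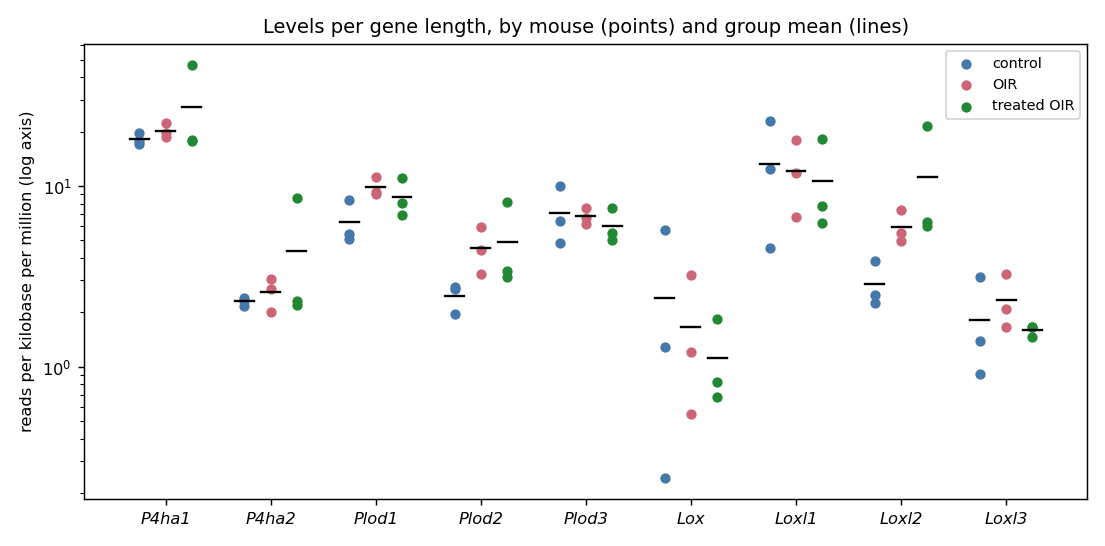
Each point is the level of an enzyme in 1 mouse, in RPKM on a log axis, and each line is the mean of the 3 mice of a group. P4ha1 was the highest of the 9 enzymes in the mean of each group, and Lox spread the most widely among control mice.

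The first comparison, of OIR with control mice, asks how the ischemic retina differed from the healthy one. No enzyme was called in it: 0 of 9 had an adjusted p below 0.05 (edgeR, Benjamini-Hochberg over all genes), a threshold that 0.941% of all genes passed. DESeq2 called 0 of 9 on all mice, beside 11.4% of all genes, and 3 of 9 on these 2 groups alone, beside 15.6%, and limma-voom called 2 of 9, beside 13.1%. An unadjusted p below 0.05 was reached by Plod1 and Plod2, 2 of 9, beside 23.8% of all genes. In Plod1, Plod2, and Loxl2, 3 of 9, every OIR mouse was above every control mouse, beside 15.9% of all genes, and in none was every OIR mouse below. Of the 9 enzymes, 6 had a log2 fold change above 0, beside 53.5% of all genes, with a median of 0.17 over the enzymes and 0.03 over all genes. In bulk retina, more cells of a type and more RNA per cell cannot be told apart.

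In the second comparison, of treated OIR with control mice, 0 of 9 enzymes were called by edgeR, beside 0.0228% of all genes. DESeq2, on all mice or on these 2 groups, and limma-voom each called 1 of 9, Loxl2, beside 4.7%, 2.18%, and 5.28% of all genes in this order. Plod2 and Loxl2, 2 of 9, had an unadjusted p below 0.05, beside 18.6% of all genes. The same pair lay above control without overlap, beside 12.8% of all genes. A log2 fold change above 0 was found in 5 of 9, beside 51.4% of all genes, with medians of 0.46 over the enzymes and 0.01 over all genes. Both comparisons use the same 3 control mice, so their values are given side by side only.

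The third comparison, of treated OIR with OIR mice, asks what differed after the HIF inhibitor. Again 0 of 9 enzymes were called, beside 0% of all genes in edgeR, 0.188% in DESeq2 on all mice, 0.443% in DESeq2 on these 2 groups, and 0.0057% in limma-voom, and in edgeR 0 of 9 had an unadjusted p below 0.05, beside 4.69% of all genes. None of the 9 was without overlap in either direction, beside 9.13% of all genes. Among the 9, 4 had a log2 fold change above 0, beside 51.3% of all genes, with medians of -0.17 over the enzymes and 0.01 over all genes.

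**Figure D2:**
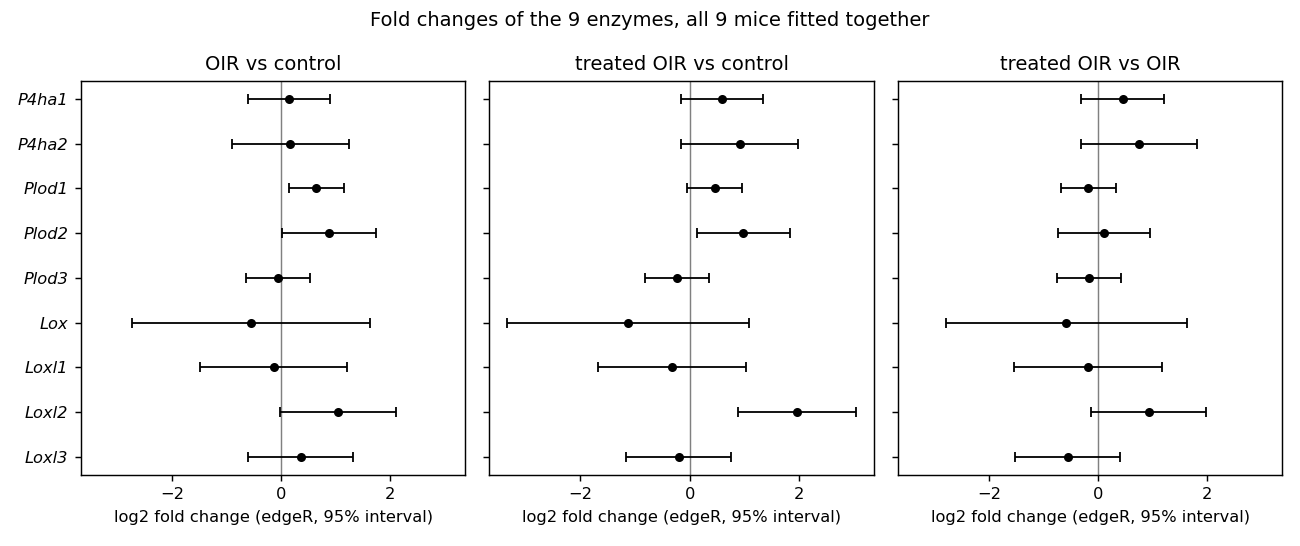
Points are log2 fold changes of the 9 enzymes from the edgeR fit of all 9 mice, with 95% intervals as bars, in 3 panels for the 3 comparisons. The interval lay above 0 for Plod1 and Plod2 in OIR against control and for Plod2 and Loxl2 in treated OIR against control, and every interval for treated OIR against OIR included 0.

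P4ha1 (ENSMUSG00000019916, chromosome 10, 59323296 to 59373304, + strand) encodes the main catalytic α subunit of prolyl 4-hydroxylase. Control mice had a log2 CPM of 6.34, 6.19, and 6.14, OIR mice one of 6.26, 6.33, and 6.52, and treated OIR mice one of 7.59, 6.19, and 6.21. OIR mice overlapped control mice, and treated OIR mice 5 and 10 lay within the control range. The log2 fold change was 0.15 (SE 0.33, 95% interval -0.61 to 0.90, edgeR adjusted p = 0.833) in OIR and 0.60 (SE 0.34, adjusted p = 0.362) in treated OIR mice against control. Without treated OIR mouse 2, the latter was -0.03 (SE 0.11).

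P4ha2 (ENSMUSG00000018906, chromosome 11, 54100095 to 54131665, + strand) encodes the other α subunit measured. Values of log2 CPM were 3.91, 3.86, and 3.78 for control mice, 3.66, 4.26, and 4.07 for OIR mice, and 5.74, 3.85, and 3.79 for treated OIR mice. The pattern was that of P4ha1, with overlapping groups and a single high treated OIR mouse. Against control it differed by 0.17 on the log2 scale (SE 0.47, edgeR adjusted p = 0.866) in OIR and 0.92 (SE 0.47, adjusted p = 0.329) in treated OIR mice, and the latter became -0.02 (SE 0.19) without treated OIR mouse 2. For treated OIR against OIR mice the log2 fold changes were 0.45 (95% interval -0.30 to 1.21) for P4ha1 and 0.75 (95% interval -0.32 to 1.82) for P4ha2, and without treated OIR mouse 2 they were -0.15 and -0.17.

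Plod1 (ENSMUSG00000019055, chromosome 4, 147909753 to 147936767, − strand) encodes a lysyl hydroxylase that acts on the helical part of collagen. The log2 CPM of control mice was 5.83, 5.11, and 5.2, that of OIR mice 5.98, 5.94, and 6.24, and that of treated OIR mice 6.22, 5.78, and 5.56. Every OIR mouse was above every control mouse, while treated OIR mice 5 and 10 were below control mouse 1. OIR mice were at 1.56-fold the control level, with a log2 fold change of 0.64 (SE 0.22, 95% interval 0.14 to 1.15, unadjusted p = 0.0185, edgeR adjusted p = 0.136). In treated OIR mice the log2 fold change against control was 0.46 (SE 0.22, edgeR adjusted p = 0.304), and against OIR it was -0.18 (95% interval -0.69 to 0.32). Leaving out treated OIR mouse 2 gave 0.25 (SE 0.22) and -0.36 (SE 0.22), and leaving out control mouse 1 gave 0.90 (SE 0.20) in OIR and 0.72 (SE 0.20) in treated OIR mice against control.

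Plod2 (ENSMUSG00000032374, chromosome 9, 92542223 to 92608428, + strand) encodes the lysyl hydroxylase of the collagen ends, the telopeptides, whose product directs cross-links toward stable forms. Control mice had a log2 CPM of 3.91, 3.86, and 3.41, OIR mice one of 4.15, 4.59, and 5.0, and treated OIR mice one of 5.47, 4.19, and 4.08. All 6 OIR and treated OIR mice lay above the 3 control mice. OIR mice were at 1.84-fold the control level, with a log2 fold change of 0.88 (SE 0.38, 95% interval 0.02 to 1.73, unadjusted p = 0.0450, edgeR adjusted p = 0.199). Treated OIR mice were at 1.98-fold, with one of 0.98 (SE 0.38, unadjusted p = 0.0289, edgeR adjusted p = 0.225), and 0.40 (SE 0.25, edgeR adjusted p = 0.489) without treated OIR mouse 2. The treated OIR and OIR means were the same to 2 decimals, 4.58 ± 0.77 and 4.58 ± 0.43 (SD, n = 3 each), with a log2 fold change of 0.11 (95% interval -0.74 to 0.95) that became -0.46 (SE 0.25) without treated OIR mouse 2.

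Plod3 (ENSMUSG00000004846, chromosome 5, 136987019 to 136996648, + strand) encodes a lysyl hydroxylase that also attaches sugars to hydroxylysine. The log2 CPM of control mice was 5.50, 4.85, and 4.46, that of OIR mice 4.80, 5.10, and 4.91, and that of treated OIR mice 5.10, 4.64, and 4.52, so that the OIR and treated OIR values lay within the control range. The log2 fold change was -0.06 (SE 0.26, 95% interval -0.64 to 0.52) in OIR and -0.23 (SE 0.26) in treated OIR mice against control, with edgeR adjusted p of 0.915 and 0.650. With control mouse 1 left out these were 0.27 (SE 0.21) and 0.10 (SE 0.21), and with treated OIR mouse 2 left out the second was -0.43 (SE 0.27). Treated OIR against OIR mice gave -0.17 (95% interval -0.76 to 0.41), and -0.34 (SE 0.27) without treated OIR mouse 2.

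**Figure D3:**
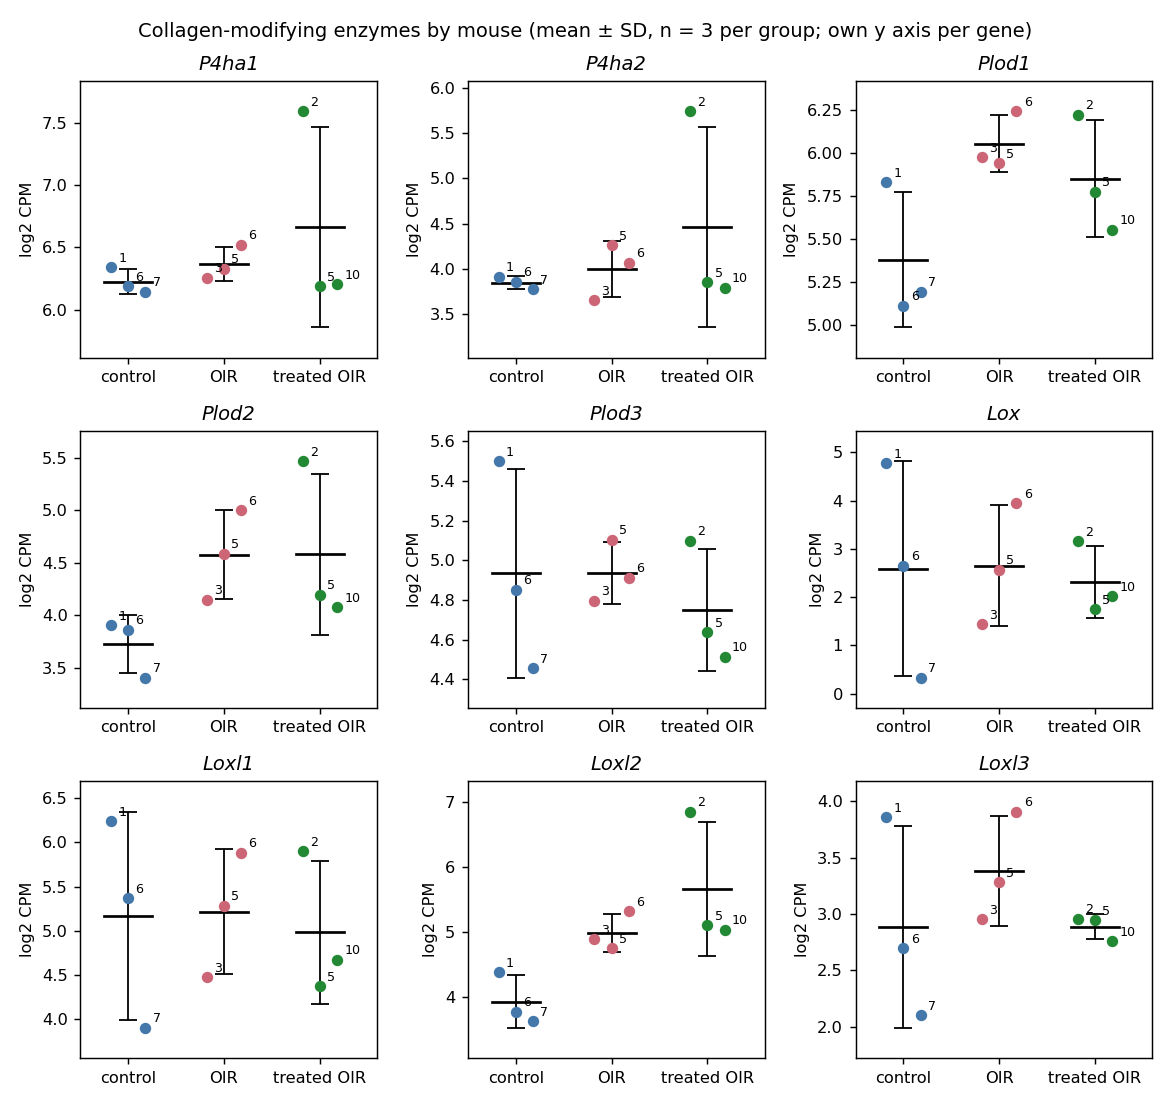
Points are the log2 CPM of each enzyme in each mouse, numbered by mouse, and the lines and bars are the mean ± SD of the 3 mice of a group; each gene has its own y axis. OIR mice lay above all control mice in Plod1, Plod2, and Loxl2, and control mouse 1 and treated OIR mouse 2 were the highest of their groups in all 9 enzymes.

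Loxl2 (ENSMUSG00000034205, chromosome 14, 69609068 to 69695834, + strand) encodes the lysyl oxidase best known for cross-linking collagen IV of basement membranes. Control mice had a log2 CPM of 4.38, 3.77, and 3.62, OIR mice one of 4.89, 4.75, and 5.31, and treated OIR mice one of 6.86, 5.10, and 5.03. All 6 OIR and treated OIR mice were above the 3 control mice, and treated OIR mice 5 and 10 lay within the OIR range. OIR mice were at 2.06-fold the control level, with a log2 fold change of 1.04 (SE 0.47, 95% interval -0.02 to 2.11, unadjusted p = 0.0539, edgeR adjusted p = 0.219). Treated OIR mice were at 3.92-fold, with one of 1.97 (SE 0.48, 95% interval 0.88 to 3.06, unadjusted p = 0.00263, edgeR adjusted p = 0.126). Without treated OIR mouse 2 this was 1.11 (SE 0.25, edgeR adjusted p = 0.146). Between treated OIR and OIR mice the log2 fold change was 0.93 (95% interval -0.13 to 1.98), and 0.09 (SE 0.25) without treated OIR mouse 2.

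Lox (ENSMUSG00000024529, chromosome 18, 52516069 to 52529867, − strand) encodes lysyl oxidase itself, which acts on fibrillar collagen and elastin. Control mice had 784, 125, and 18 counts, OIR mice 49, 125, and 342, and treated OIR mice 139, 53, and 77. As log2 CPM, control mice were at 4.78, 2.65, and 0.34, OIR mice at 1.44, 2.57, and 3.95, and treated OIR mice at 3.16, 1.74, and 2.02, so that the highest and the lowest of the 9 values were both in control mice. Against control the fitted log2 fold change was -0.55 (SE 0.96, 95% interval -2.73 to 1.62, edgeR adjusted p = 0.772) in OIR and -1.13 (SE 0.98, 95% interval -3.35 to 1.08, edgeR adjusted p = 0.554) in treated OIR mice. When control mouse 1 was left out, the direction turned in both, to 1.10 (SE 0.89) and 0.52 (SE 0.88). The second was -1.71 (SE 1.10) without treated OIR mouse 2.

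Loxl1 (ENSMUSG00000032334, chromosome 9, 58287738 to 58313186, − strand) encodes a lysyl oxidase needed to maintain elastic fibers. Values of log2 CPM were 6.24, 5.37, and 3.91 for control mice, 4.47, 5.28, and 5.88 for OIR mice, and 5.90, 4.38, and 4.67 for treated OIR mice, the OIR and treated OIR values again within the control range. The log2 fold changes against control were -0.14 (SE 0.60) in OIR and -0.32 (SE 0.60) in treated OIR mice, with edgeR adjusted p of 0.916 and 0.801. They became 0.51 (SE 0.61) and 0.32 (SE 0.61) without control mouse 1, and the second was -0.94 (SE 0.59) without treated OIR mouse 2.

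Loxl3 (ENSMUSG00000000693, chromosome 6, 83034173 to 83052562, + strand) encodes a lysyl oxidase known from development of the palate and spine. The log2 CPM of control mice was 3.86, 2.70, and 2.10, that of OIR mice 2.95, 3.29, and 3.91, and that of treated OIR mice 2.96, 2.95, and 2.76. Each of the 3 OIR mice exceeded control mice 6 and 7, and 1 exceeded control mouse 1. The log2 fold change was 0.36 (SE 0.42, edgeR adjusted p = 0.648) in OIR and -0.20 (SE 0.43, edgeR adjusted p = 0.829) in treated OIR mice against control. Without control mouse 1 the values were 1.02 (SE 0.33, unadjusted p = 0.0147, edgeR adjusted p = 0.144) and 0.46 (SE 0.32). For the other lysyl oxidases, treated OIR against OIR gave log2 fold changes of -0.58 (95% interval -2.79 to 1.63) for Lox, -0.18 (95% interval -1.53 to 1.17) for Loxl1, and -0.55 (95% interval -1.52 to 0.41) for Loxl3. With treated OIR mouse 2 left out these were -1.11 (SE 1.08), -0.76 (SE 0.59), and -0.56 (SE 0.49).

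Counts are uncertain for some of these genes, since whether counting used strand is not given in the sources used here. Overlaps are given here over whole gene spans in GENCODE M21, introns included, and overlap of exons alone was not computed. Loxl2 shares 74219 bases with the antisense gene Gm27177, while its deposited gene length is 5405 bases. Lox shares 1207 bases with an antisense gene. Plod3 shares 1003 bases with Znhit1 and Loxl3 1297 bases with Htra2, each on the other strand. Plod2 shares 647 bases with Gm38391. P4ha1, P4ha2, Plod1, and Loxl1 share no bases with another gene in that annotation.

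The enzymes were alike in which mice were high. Control mouse 1 was the highest control mouse in all 9, from 1.07 times the mean CPM of the other control mice in P4ha2 to 7.45 times in Lox, with 2.73 times in Loxl3, 2.69 times in Loxl1, and 1.78 times in Plod3. Treated OIR mouse 2 was the highest treated OIR mouse in all 9, from 1.07 times in Loxl3 to 3.8 times in P4ha2, with 3.46 times in Loxl2, 2.64 times in P4ha1, 2.59 times in Loxl1, 2.52 times in Plod2, and 2.45 times in Lox. Loxl1 and Lox were thus far out in both mice, Loxl3 chiefly in control mouse 1, and P4ha1, P4ha2, and Plod2 chiefly in treated OIR mouse 2.

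Several marker lists also had their highest sums of a group in these mice. The fibroblast markers Dcn, Lum, Pdgfra, Col1a1, Col1a2, and Col3a1 gave control mice sums of 1016, 202.8, and 38.88 CPM, OIR mice 127.4, 153.7, and 238.1 CPM, and treated OIR mice 197.2, 87.7, and 81.51 CPM. Within each group the mouse with the highest sum was also highest in Lox and Loxl1. The same held for P4ha1, Plod1, Plod2, Loxl2, and Loxl3. It did not hold for P4ha2 and Plod3, which were highest in mouse 5 among OIR mice. Most of the sum in control mouse 1 came from Col1a1, Col1a2, and Col3a1, at 486.7, 360.3, and 131.3 CPM. The other markers of the list did not all follow it. Among OIR mice, Dcn and Lum were highest in mouse 5, at 13.56 and 4.009 CPM, against 2.204 and 0.7198 CPM in mouse 6. Pdgfra was highest in control mouse 6, at 28.58 CPM, and in OIR mouse 3, at 58.33 CPM. Lum, which encodes a proteoglycan of corneal and scleral matrix, was at 0 counts in control mouse 7, where Lox had 18 counts, and at 219 counts in control mouse 1. With the mean log2 CPM of the fibroblast markers as a covariate, a choice made after seeing the data, the OIR against control log2 fold change was 0.27 (SE 0.48) for Lox and 0.07 (SE 0.28) for Loxl1, against 0.86 (SE 0.33) for Plod2 and 1.06 (SE 0.42) for Loxl2. The 3 collagen genes of this list are themselves substrates of the enzymes. Sums of the microglia and macrophage list were 150, 83.18, and 43.45 CPM in control and 92.5, 121.5, and 175.7 CPM in OIR mice. Lox and Loxl1 had the same order of mice in both groups. Among treated OIR mice these sums were 53.79, 51.02, and 55.09 CPM, and mouse 2 was not the highest. The astrocyte list, given below, was highest in the same mouse of each group as the fibroblast list.

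The 11 lens markers, which include Cryaa, Bfsp1, and Mip, gave control mice sums of 310.8, 174.5, and 15.99 CPM, OIR mice 1166, 359.3, and 77.74 CPM, and treated OIR mice 131500, 739.6, and 10.02 CPM. With a lens score as a covariate, the treated OIR against control log2 fold change was 0.15 (SE 0.22) for P4ha1, 0.21 (SE 0.32) for P4ha2, 0.57 (SE 0.30) for Plod2, and 1.33 (SE 0.31, edgeR adjusted p = 0.195) for Loxl2. The score, the mean log2 CPM of the lens markers, was 12.36 in treated OIR mouse 2 and at most 5.47 in any other mouse. The covariate thus chiefly sets treated OIR mouse 2 apart. Loxl2 was at 115.8 CPM in treated OIR mouse 2, whose lens sum was 131500 CPM. It was at 34.2 and 32.6 CPM in treated OIR mice 5 and 10, whose lens sums were 739.6 and 10.02 CPM. Among OIR mice, mouse 3 had the highest lens sum, 1166 CPM, and its P4ha2, at 12.5 CPM, was the lowest of all mice. Its Loxl2 was at 29.5 CPM, against 39.7 CPM in OIR mouse 6, whose lens sum was 77.74 CPM. The part of lens or fibroblast RNA in the levels of the enzymes was not tested further.

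**Figure D4:**
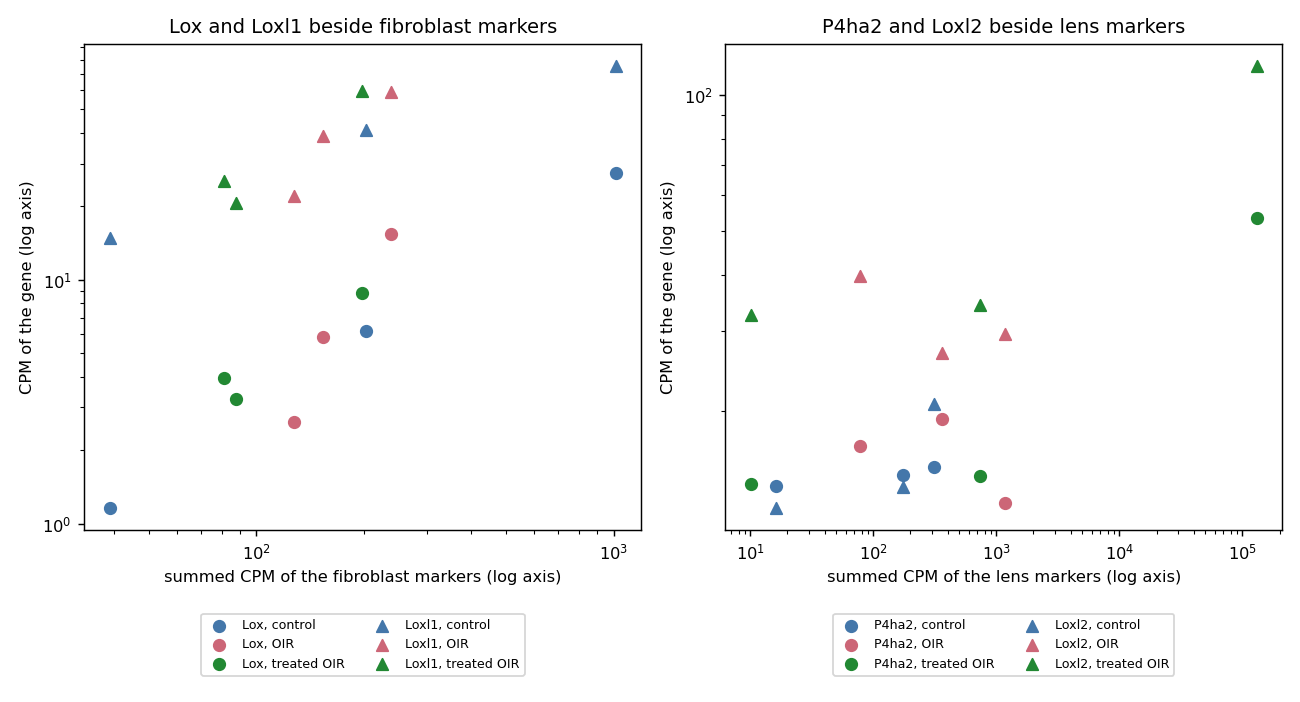
The left panel plots the CPM of Lox and Loxl1 against the summed CPM of the fibroblast markers, and the right panel the CPM of P4ha2 and Loxl2 against that of the lens markers, with 1 point per mouse and log axes. Control mouse 1 is at the right of the left panel with 1016 CPM of fibroblast markers, and treated OIR mouse 2 is at the right of the right panel with 131500 CPM of lens markers.

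Vascular markers did not follow the same order. The endothelial list, which includes Pecam1 and Cdh5, gave control mice sums of 130.3, 127.8, and 150.3 CPM, OIR mice 223.1, 141.8, and 74.19 CPM, and treated OIR mice 83.17, 283.8, and 244.4 CPM. The pericyte and smooth muscle list spanned 193 to 201 CPM among control mice, 95.2 to 299 CPM among OIR mice, and 109 to 442 CPM among treated OIR mice, of which mouse 2 was the lowest. OIR mouse 6 thus had the highest Plod2 and Loxl2 of the OIR mice and the lowest sums of both vascular lists. Sums of the astrocyte list, of which Gfap was the largest part, spanned 101 to 256 CPM among control and 279 to 765 CPM among OIR mice. Among treated OIR mice they spanned 140 to 435 CPM. OIR mice were thus above control mice in this sum, and in Gfap and Aldh1l1 by themselves. In Pax2 and S100b, also of this list, OIR and control mice overlapped.

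With control mouse 1 left out, all 9 enzymes had a log2 fold change above 0 in OIR against the other 2 control mice, beside 53.4% of all genes, with medians of 0.90 over the enzymes and 0.04 over all genes. An unadjusted p below 0.05 was reached by 3 of them, beside 23.1% of all genes, and none was called, in a fit that called 0% of all genes. Control mouse 1 was the highest control mouse in all 9, so leaving it out lowers each control mean by construction. This also applies to the fit without both mice below. Without control mouse 6, control mouse 7, or OIR mouse 6, 0 of 9 had an unadjusted p below 0.05, beside 3539 of 17987, 2981 of 18096, and 2845 of 17986 genes. With treated OIR mouse 2 left out, Plod2 at 0.85 (SE 0.23, edgeR adjusted p = 0.0377) and Loxl2 at 1.02 (SE 0.23, edgeR adjusted p = 0.0197) were called in OIR against control, in a fit where 2272 genes in all were called instead of 165, 12.5% of those tested. That mouse is in neither group of the comparison and enters it through the shared estimate of spread and the scaling. With both mice left out, a choice made after seeing the data, Plod1 at 0.90 (SE 0.13, adjusted p = 0.00737), Plod2 at 0.96 (SE 0.26, adjusted p = 0.0419), and Loxl2 at 1.31 (SE 0.19, adjusted p = 0.00720) were called by edgeR, beside 13.2% of all genes in the same fit. For treated OIR against OIR mice, 4 of 9 log2 fold changes were above 0 with all mice and 1 of 9 without treated OIR mouse 2, that of Loxl2, beside 52.1% of all genes, with a median of -0.36 and no call.

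**Figure D5:**
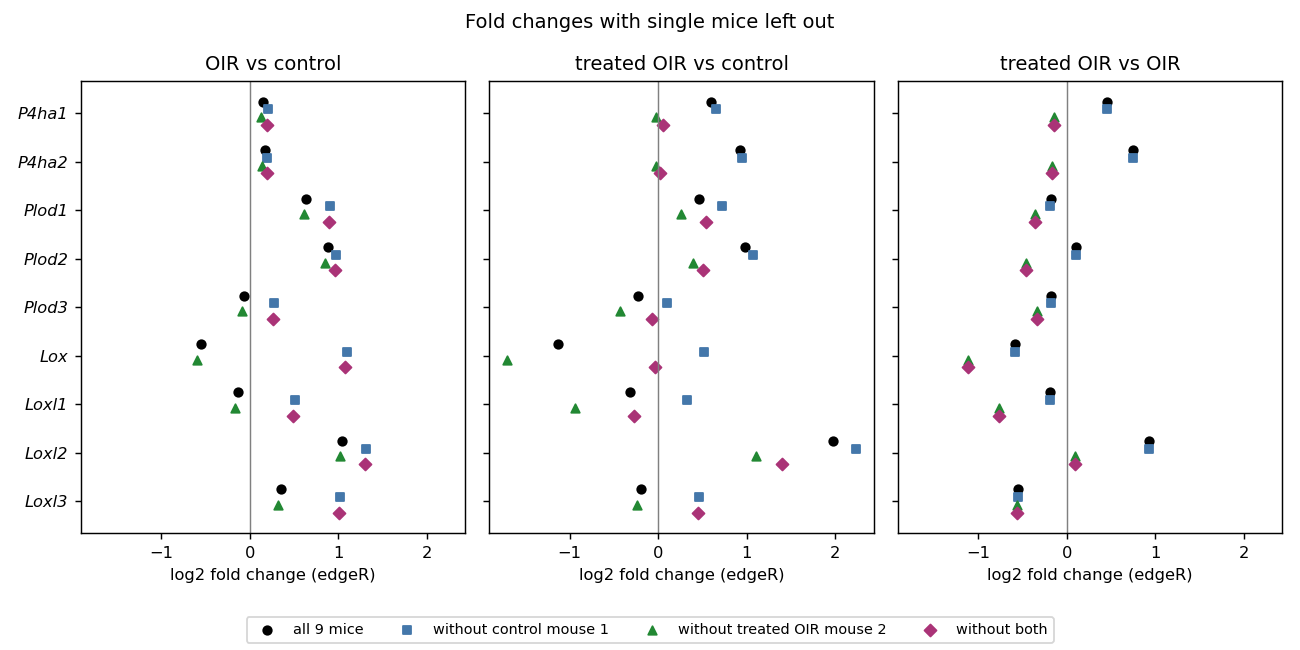
Log2 fold changes of the 9 enzymes from edgeR are plotted with all 9 mice and with control mouse 1, treated OIR mouse 2, or both left out, in 3 panels for the 3 comparisons. In OIR against control, Lox and Loxl1 move from below to above 0 without control mouse 1, and in treated OIR against OIR, P4ha1, P4ha2, and Plod2 move from above to below 0 without treated OIR mouse 2.

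Sex differed between the groups, and the differences of mean log2 CPM within a sex are given without a test. Between 2 male OIR and 2 male control mice the difference was 0.94 for Plod1, 1.16 for Plod2, and 1.34 for Loxl2, and between the single females it was 0.15, 0.24, and 0.51. These are the 3 enzymes whose OIR and control mice do not overlap, which fixes the direction in each sex. The other 6 were all above 0 between males and below 0 between the single females, of which the control animal was mouse 1. Lox differed by 1.77 between males and by -3.34 between females, Loxl1 by 0.95 and -1.76, Loxl3 by 1.20 and -0.91, and Plod3 by 0.35 and -0.70. P4ha1 differed by 0.26 and -0.09 and P4ha2 by 0.35 and -0.26. Between the male treated OIR mouse and the 2 male OIR mice the difference was -0.71 for Plod2 and -0.22 for P4ha1, while the females gave 0.68 and 0.64, of which treated OIR mouse 2 was 1 of 3 animals.

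The mice were then used to ask which genes varied most like 1 enzyme of each class, over 9 mice and among 11083 genes with a mean log2 CPM of at least 3. These are descriptions, and all of them share the same libraries, mouse 2 of the treated OIR group included. For P4ha1 the highest Pearson r was with Cryab (0.987), which encodes a small heat shock protein abundant in lens, followed by Ell2 (0.983), Fabp5 (0.981), Maf (0.981), and Gng5 (0.980). For Plod2 it was with Sertad1 (0.988), Tspan14 (0.983), Tmbim1 (0.981), Limch1 (0.980), and H2-Ab1 (0.979). For Lox it was with Fbln2 (0.972), which encodes an elastic fiber protein, Loxl1 (0.963), Col1a1 (0.955), Ifi27 (0.953), and Tspo (0.951).

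The partners of the hydroxylases in the endoplasmic reticulum gave no call in edgeR. Of 15 listed, 14 were tested, since P4ha3, a further α subunit, had too few counts. In OIR against control, 12 of 14 had a log2 fold change above 0, beside 53.5% of all genes, with a median of 0.31, and 3 had an unadjusted p below 0.05, beside 23.8% of all genes. DESeq2 on these 2 groups called 1, P3h4, beside 15.6% of all genes. Fkbp14, a prolyl isomerase for collagen folding, had a log2 fold change of 0.59 (SE 0.20, edgeR adjusted p = 0.126), and Ppib, which encodes cyclophilin B of the prolyl 3-hydroxylation complex, one of 0.33 (SE 0.14, edgeR adjusted p = 0.186). P4htm, a transmembrane prolyl hydroxylase, had one of -0.28 (SE 0.11, edgeR adjusted p = 0.176). The same number, 12 of 14, were above 0 in the treated OIR group against control, beside 51.4% of all genes, the median being 0.25. Of the 14, 1 had an unadjusted p below 0.05, beside 18.6% of all genes. Without treated OIR mouse 2, where P4ha3 was also tested, 8 of 15 were above 0, beside 49.2% of all genes, with a median of 0.06. With all mice, Serpinh1, the collagen chaperone HSP47, was at 0.75 (SE 0.39, edgeR adjusted p = 0.332) in treated OIR mice against control. Without treated OIR mouse 2 it was at 0.54 (SE 0.42, edgeR adjusted p = 0.575). Without control mouse 1 it was at 1.28 (SE 0.23, edgeR adjusted p = 0.0857) in OIR and 1.44 (SE 0.23, edgeR adjusted p = 0.194) in treated OIR mice. Leaving out that mouse left 0 genes called in all in either comparison. Between treated OIR and OIR mice 7 of 14 were above 0, beside 51.3% of all genes, and 3 of 15 without treated OIR mouse 2, beside 52.1%. None had an unadjusted p below 0.05 in either fit.

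Among genes of collagen export and processing, 14 of 15 were tested, and Adamts3, a proteinase that removes the amino end of procollagen, was the only one that edgeR called in OIR against control, where it rose by a log2 fold change of 0.997 (SE 0.18, edgeR adjusted p = 0.0485). That fit called 0.941% of all genes. DESeq2 on these 2 groups also called Loxl4, Sec24d, and Sparc, beside 15.6% of all genes. In edgeR without treated OIR mouse 2, Loxl4 was also called, beside 12.5% of all genes. Adamts3 was not called without control mouse 1, with 0.91 (SE 0.21, edgeR adjusted p = 0.0965), in a fit that called 0 genes in all. In treated OIR mice it had a log2 fold change of 0.77 (SE 0.18, edgeR adjusted p = 0.119) against control. Loxl4, the remaining lysyl oxidase, had one of 1.13 (SE 0.35, edgeR adjusted p = 0.107) in OIR and 1.47 (SE 0.35, edgeR adjusted p = 0.121) in treated OIR mice, and 1.03 (SE 0.28) in the latter without mouse 2. Sec24d, a coat protein of the vesicles that carry procollagen, had one of 0.66 (SE 0.24, edgeR adjusted p = 0.145) in OIR mice. DESeq2 on treated OIR and control mice called Adamts3 and Loxl4, beside 2.18% of all genes. Against control, the list had 11 of 14 genes above 0 in OIR and 10 of 14 in treated OIR mice, beside 53.5% and 51.4% of all genes. The latter was 6 of 14 without treated OIR mouse 2, beside 49.2% of all genes, and the median of the list turned from 0.32 to -0.09. In treated OIR against OIR mice 4 of 14 were above 0, beside 51.3% of all genes, and 0 of 14 without treated OIR mouse 2, beside 52.1%.

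All 15 substrates were tested, and Col2a1, the collagen of cartilage and vitreous, was the only one that edgeR called on all mice. It rose by a log2 fold change of 1.25 (SE 0.17, edgeR adjusted p = 0.0407) in OIR and of 1.43 (SE 0.17, edgeR adjusted p = 0.0490) in treated OIR mice against control. Without control mouse 1 these were 1.21 (SE 0.20, edgeR adjusted p = 0.0857) and 1.39 (SE 0.20, edgeR adjusted p = 0.194). That fit called 0 genes in all in either comparison. Without treated OIR mouse 2 the value in treated OIR mice was 1.34 (SE 0.17, edgeR adjusted p = 0.0607). DESeq2 on 2 groups called Col2a1 in both comparisons, Col6a1 too in OIR, and Col4a1 and Col4a2 too in treated OIR mice. Of all genes, edgeR on all mice called 0.941% in OIR and 0.0228% in treated OIR mice against control. For DESeq2 on 2 groups the shares were 15.6% and 2.18%. Col4a1, a collagen of basement membranes, had a log2 fold change of 0.89 (SE 0.42, edgeR adjusted p = 0.233) in OIR and 2.09 (SE 0.43, edgeR adjusted p = 0.102) in treated OIR mice, and 1.57 (SE 0.34) in the latter without mouse 2. Eln, which encodes elastin, had one of -0.59 (SE 0.20, edgeR adjusted p = 0.195) in treated OIR mice against control and -0.69 (SE 0.20, unadjusted p = 0.00735, edgeR adjusted p = 0.984) against OIR. In OIR, 8 of 15 substrates were above 0 against control, beside 53.5% of all genes, with a median of 0.04. Without control mouse 1 it was 14 of 15, beside 53.4% of all genes, with a median of 0.49. In the treated OIR group 6 of 15 were above 0 against control, beside 51.4% of all genes, the median being -0.59. Without control mouse 1 it was 9 of 15, beside 9405 of 17917 genes. Between treated OIR and OIR mice 5 of 15 were above 0, beside 51.3% of all genes, with a median of -0.05, and -0.37 without treated OIR mouse 2.

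A list of 15 textbook HIF targets outside this enzyme group was measured in the same mice. In OIR against control, 14 of 15 had a log2 fold change above 0, beside 53.5% of all genes, with a median of 0.29. Ndufa4l2, a mitochondrial protein, and Adm, which encodes adrenomedullin, rose, by 2.13 (SE 0.35, edgeR adjusted p = 0.0408) and 2.84 (SE 0.53, edgeR adjusted p = 0.0496). The edgeR fit of all mice called 0.941% of all genes. Both are among the 4 that edgeR called without treated OIR mouse 2, with Egln3 and Vegfa, beside 12.5% of all genes. They are also among the 5 that DESeq2 called on these 2 groups, with Car9 besides, beside 15.6% of all genes. Neither was called without control mouse 1, with 2.13 (edgeR adjusted p = 0.0892) and 3.21 (edgeR adjusted p = 0.0875), in a fit that called 0 genes in all. All 15 were above 0 in treated OIR mice against control, beside 51.4% of all genes, with a median of 0.91. Here edgeR called none, beside 0.0228% of all genes, and DESeq2 on these 2 groups 4, beside 2.18%. Of the 15, 11 had an unadjusted p below 0.05 in edgeR, beside 18.6% of all genes. With treated OIR mouse 2 left out, 14 of 15 were above 0, beside 49.2% of all genes, with a median of 0.51. In that fit edgeR called 2, Ndufa4l2 and Vegfa, beside 3 of 18116 genes in all. Between treated OIR and OIR mice 15 of 15 were above 0, beside 51.3% of all genes, with a median of 0.52. Neither tool made a call, beside 0% of all genes in edgeR and 0.443% in DESeq2 on these 2 groups. Of the 15, 3 had an unadjusted p below 0.05 in edgeR, beside 4.69% of all genes. Without treated OIR mouse 2, 11 of 15 were above 0, beside 52.1% of all genes, with a median of 0.06. Kdm3a, a histone demethylase, had the smallest p of the list there, with a log2 fold change of 0.36 (SE 0.12, unadjusted p = 0.0139, edgeR adjusted p = 0.990) with all mice and 0.28 (SE 0.12) without mouse 2.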

How the data were processed

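RNA-Seq was performed on retinas of 3 mice per group, 9 in all, grouped as their labels state; the paper describes them as separate animals. The authors deposited 1 table of whole-number counts per gene, with a gene length, and without normalization. The submitters' processing notes name CASAVA and HISAT; the counting tool, its use of strand, and the annotation are not given in the sources used here. Of 54532 gene identifiers, 54409 are in GENCODE M21 and 98.3% of these lie at identical coordinates in it, which are those of GRCm38. Over 36 pairs of mice, 0 had identical counts. Total counts per mouse were 16028731 to 27213184.

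Counts were analysed with edgeR 4.0.16 (R 4.3.3). After filterByExpr by group, 17540 genes were kept and scaled with TMM, and the quasi-likelihood test was applied to 1 fit that held the 9 mice and a mean for each group. A gene was called at a Benjamini-Hochberg adjusted p below 0.05 over all genes tested. Log2 CPM used TMM library sizes and a prior count of 2, and RPKM the deposited gene length. Intervals are 95%.

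The enzymes and gene lists were chosen with earlier results of these data known. All 9 enzymes are named; from a list, called genes and up to 4 with the smallest p in a comparison could be named. List genes called only under an alternative, the fibroblast markers given singly, and Serpinh1's values without control mouse 1 were chosen after their values were seen. Markers of 9 cell types were summed as CPM. Promoter sequences are RefSeq's (GRCm38.p6).

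The alternatives tried were DESeq2 1.42.0 with every mouse and with only the 2 groups compared, edgeR on 2 groups, limma 3.58.1 (voom with quality weights), upper-quartile scaling, total counts alone, crystallin genes removed, no filter, a minimum of 10 counts in every mouse, an added limit of 1 on the absolute log2 fold change, sex or lens score as a covariate, a prior count of 0.5, and leaving out each mouse. A fibroblast score as a covariate and leaving out control mouse 1 and treated OIR mouse 2 together were chosen after seeing the data. The main edgeR fit was checked on simulated counts, for OIR against control. Tables and plots used matplotlib 3.10.9, numpy 2.4.6, and pandas 2.3.3 in Python 3.11.15.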

Additional observations from a re-analysis of the deposited data

How the results depend on the processing

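Of 594 log2 fold changes of the 9 enzymes recomputed under 22 alternatives, 537 kept their direction and their side of the threshold, 43 changed sign, and 14 became calls; the cause was not tested. In OIR against control, calls were made for 3 of 9 enzymes by DESeq2 on the 2 groups, 1 by edgeR on the 2 groups, 2 by limma-voom, and 3 without control mouse 1 and treated OIR mouse 2, and for 0 to 2 with each mouse left out. In treated OIR against control, DESeq2 on all mice, DESeq2 on the 2 groups, and limma-voom called 1, and in treated OIR against OIR no alternative called any, where unadjusted p below 0.05 was reached by 0 to 2.

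Over all genes in OIR against control, 165 were called, and the count was 1994 and 2677 with DESeq2 on all mice and on the 2 groups, 1771 with edgeR on the 2 groups, 2305 with limma-voom, 37 with total counts alone, 532 with no filter, 376 with 10 counts in every mouse, 53 with an absolute log2 fold change above 1, 0 with sex (3775 at an unadjusted p below 0.05), 434 with the lens score, 523 with the fibroblast score, and 2351 without both mice. It was 2272 without treated OIR mouse 2, 196 without treated OIR mouse 10, and 0 without each of the other 7 mice, so the range was 0 to 2272. In treated OIR against control, 4 became 825 and 369 with DESeq2 on all mice and on the 2 groups, 926 with limma-voom, 18 with no filter, 7 with the fibroblast score, 2 without both mice, 0 with edgeR on the 2 groups, with crystallin genes removed, with sex, or with the lens score, and 0 to 6 with each mouse left out. In treated OIR against OIR, 0 became 33 and 75 with DESeq2 on all mice and on the 2 groups and 1 with limma-voom, with no filter, or with the fibroblast score, and remained 0 with each mouse left out, from 0 to 0.

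The signs that changed in OIR against control were P4ha2 at -0.015 with the lens score, Plod3 at 0.037 with limma-voom and 0.26 without both mice, Lox at 0.026 with sex, 0.27 with the fibroblast score, and 1.08 without both mice, and Loxl1 at 0.030 with sex, 0.068 with the fibroblast score, and 0.49 without both mice. For treated OIR against control they were Lox at 0.37, Loxl1 at 0.22, and Loxl3 at 0.21 with the fibroblast score, and Loxl3 at 0.059 with limma-voom and 0.44 without both mice. Between treated OIR and OIR mice they were P4ha1 at -0.077, P4ha2 at -0.060, and Plod2 at -0.32 with limma-voom, P4ha1 at -0.15, P4ha2 at -0.17, and Plod2 at -0.46 without both mice, Plod2 at -0.056 with total counts alone and -0.22 with the lens score, and Lox at 0.10 and Loxl1 at 0.15 with the fibroblast score. With each mouse left out, the ranges of those that changed sign were -0.27 to 0.27 for Plod3, -1.46 to 1.10 for Lox, and -0.54 to 0.51 for Loxl1 in OIR against control. They were -0.025 to 0.83 for P4ha1, -0.022 to 1.24 for P4ha2, -0.44 to 0.10 for Plod3, -1.71 to 0.52 for Lox, -0.94 to 0.32 for Loxl1, and -0.51 to 0.46 for Loxl3 in treated OIR against control, and -0.15 to 0.69 for P4ha1, -0.17 to 1.07 for P4ha2, -0.46 to 0.35 for Plod2, -1.11 to 0.33 for Lox, and -0.76 to 0.21 for Loxl1 in treated OIR against OIR. Loxl2 was 0.86 to 1.31, 1.11 to 2.27, and 0.09 to 1.23 in the 3 comparisons.

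No paired analysis was possible because the groups share at most 1 mouse number. Each group had 3 mice, and Lox had as few as 18 counts in a mouse.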

Other observations

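Genes that respond to transforming growth factor β were a further list of 10, all tested, that holds known inducers and targets in matrix-producing cells. In OIR against control 7 of 10 had a log2 fold change above 0, beside 53.5% of all genes, with a median of 0.37. Of the 10, 0 were called by edgeR, and 2 had an unadjusted p below 0.05, beside 23.8% of all genes. Tgfb2, a ligand, was at 0.87 (SE 0.22, edgeR adjusted p = 0.0727) and Ctgf, a secreted matrix protein, at 1.05 (SE 0.30, edgeR adjusted p = 0.0940). DESeq2 on these 2 groups called both, beside 15.6% of all genes. In treated OIR against OIR mice 3 of 10 were above 0, beside 51.3% of all genes, and Ctgf was at -0.95 (SE 0.30, unadjusted p = 0.0107, edgeR adjusted p = 0.984). DESeq2 on these 2 groups called Ctgf there, with -0.95 (SE 0.24, DESeq2 adjusted p = 0.0276), beside 0.443% of all genes. In edgeR without treated OIR mouse 2, Ctgf was at -0.96 (SE 0.34, edgeR adjusted p = 0.285). Without control mouse 1, 10 of 10 were above 0 in OIR against control, beside 53.4% of all genes, with a median of 1.02. Of these, 6 had an unadjusted p below 0.05, beside 23.1% of all genes, again with 0 called by edgeR, in a fit that called 0 genes in all.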
